A study of Mus musculus with 2 samples.

Results

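The thrombospondins and the cartilage intermediate layer proteins are secreted matrix glycoproteins, and 7 of their genes were followed here: Thbs1, Thbs2, Thbs3, Thbs4, Comp, Cilp and Cilp2. They were picked by gene symbol, with earlier results of these data known. All 7 were found once each among the 28001 features of both count matrices. Their UMIs (unique molecular identifiers, each standing for 1 captured transcript) were counted in tendon fibroblast-like (tenocyte-like), fibroblast-like and mural-like cells of adult mouse skeletal muscle, gated on marker genes that included none of the 7.

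The cells came from mice of strain C57BL/6J with the genotype Hic1CreERT2/CreERT2;Rosa26LSLtdTomato/tdTomato. In these animals a tamoxifen (TAM)-dependent Cre made from the Hic1 locus switches on the red reporter tdTomato, so that cells with active Hic1, a gene of quiescent mesenchymal progenitors, and all their descendants are marked. In the E10-P56 library TAM was given to pregnant dams at embryonic day 10, as 7.5 mg by gavage in 300 µL of oil, and muscle of the offspring was collected at postnatal day 56. For tracing into adulthood the study also describes progesterone given with TAM, delivery by caesarean section and cross-fostering of the pups. In the adult pulse library adult mice received 5 daily injections of 2.5 mg in 100 µL of oil from 8 weeks of age. The labels give collection at postnatal day 56 for both, whereas the text of the study places the adult collection later. Both libraries hold sorted tdTomato+ cells, and the study describes pooled tibialis anterior muscles and a gate against blood, endothelial and erythroid surface markers. The counting software differed in version (5.0.0 for E10-P56, 3.0.2 for the adult pulse). Labelling time, TAM dose and route, and the time from TAM to collection coincide with the library. So do the added steps of embryonic labelling and the software version. The age at collection does too, if the later day in the study holds. None of these can be told apart. With 1 library per labelling time no test of a difference was possible.

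Thrombospondins fold into trimers (Thbs1 and Thbs2) or pentamers (Thbs3, Thbs4 and Comp) that bind calcium, collagens and cell-surface receptors. Thbs1 and Thbs2 act on endothelial cells through Cd36 and Cd47 and restrain vessel growth, and Thbs1 can release active transforming growth factor beta (TGF-beta) from its latent complex. Thbs4 and Comp are abundant in tendon, Comp also in cartilage, where they organise collagen fibrils. Cilp binds TGF-beta and is known from cartilage, heart and fibrotic tissue, while its paralogue Cilp2 is less studied.

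The genes lie on 6 chromosomes of the mm10 (GRCm38) build. Thbs1 spans chr2:118111876-118127133 on the plus strand, where it overlaps the long non-coding gene Gm29233 on the other strand. Thbs2 spans chr17:14665500-14694235 on the minus strand. Thbs3 spans chr3:89215180-89226837 on the plus strand and overlaps Mtx1 on the other strand, so reads of Thbs3 are certain only where strand was used in counting, a setting that is not given in the sources used here. The gene for Thbs4 spans chr13:92751590-92794818 on the minus strand and Cilp chr9:65265180-65280605 on the plus strand. Comp, at chr8:70373558-70382066 on the plus strand, and Cilp2, at chr8:69880369-69887687 on the minus strand, share a chromosome.

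Promoter sequence is shown for 3 genes that differ in where they were expressed: Thbs4, far higher in tenocyte-like than in fibroblast-like cells, Cilp, high in tenocyte-like cells and in some fibroblast-like subsets, and Thbs3, the 1 gene that was lower in tenocyte-like cells. Each line holds the 250 bases before the RefSeq transcription start (build GRCm38.p6), read 5′ to 3′ on the strand of the gene. The windows are chr13:92794819-92795068 (minus strand) for Thbs4, chr9:65264930-65265179 (plus strand) for Cilp and chr3:89214930-89215179 (plus strand) for Thbs3. Capitals mark E-boxes, the pattern CANNTG bound by basic helix-loop-helix factors, a class to which the tendon factor Scx belongs.
Thbs4: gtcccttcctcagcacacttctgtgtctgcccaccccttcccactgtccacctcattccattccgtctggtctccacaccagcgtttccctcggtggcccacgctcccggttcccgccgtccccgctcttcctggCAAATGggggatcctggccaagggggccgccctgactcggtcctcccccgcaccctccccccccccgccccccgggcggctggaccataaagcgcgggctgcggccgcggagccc
Cilp: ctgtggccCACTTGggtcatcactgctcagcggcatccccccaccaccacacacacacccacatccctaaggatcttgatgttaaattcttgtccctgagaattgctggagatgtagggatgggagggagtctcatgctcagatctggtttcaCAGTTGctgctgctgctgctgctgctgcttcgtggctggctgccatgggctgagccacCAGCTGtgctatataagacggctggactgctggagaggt
Thbs3: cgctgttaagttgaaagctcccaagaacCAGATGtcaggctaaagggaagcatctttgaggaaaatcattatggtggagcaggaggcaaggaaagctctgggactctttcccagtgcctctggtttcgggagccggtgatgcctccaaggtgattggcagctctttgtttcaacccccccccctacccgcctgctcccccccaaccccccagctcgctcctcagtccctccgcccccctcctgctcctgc

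The Cilp window held 3 E-boxes, and 12.2% of the 32851 RefSeq promoter windows hold at least as many. The Thbs4 and Thbs3 windows held 1 each, and 66.2% of windows hold at least 1. The pattern reads the same on both strands, so 1 search covered both. TATAAA, searched on both strands, was in none of these 3 windows and is found in 12.4% of all windows. Tenocyte-high Thbs4 and tenocyte-low Thbs3 had the same E-box count, and a role of these sites in expression was not tested. Of the 7 genes, 5 had a RefSeq window.

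The E10-P56 library held 8236 barcodes with 67460919 UMIs and the adult pulse library 9195 barcodes with 69153173 UMIs. After removal of barcodes with under 1500 UMIs or over 10% mitochondrial UMIs, 6087 and 8567 cells remained, with a median of 7648 and 7344 UMIs. The same barcode occurred in both libraries for 15 barcodes before filtering and 11 after it. The tenocyte gate held 196 cells of E10-P56 and 476 adult pulse cells, the fibroblast gate 4152 and 6956, and the mural gate 854 and 511. In tenocyte-like cells the gate marker Tnmd stood at 2290.6 and 3076.0 counts per 1000000 UMIs (CPM), against 25.8 and 17.8 in fibroblast-like cells. The fibroblast gate marker Pdgfra stood at 53.2 and 29.4 against 452 and 583. As the gates used both genes, these levels follow from the gating and do not test it. Fmod, a gene outside the gate lists, was 5201.3 and 3915.7 CPM in tenocyte-like and 9.52 and 13.2 in fibroblast-like cells. One tenocyte marker differed widely between libraries: Scx was 7101.5 CPM in E10-P56 and 889 after the adult pulse, with 7.04 and 1.46 in fibroblast-like cells. Levels are the UMIs of a population, summed and given per 1000000 UMIs. Since the 3′ method counts each transcript once, levels of different genes can be compared without a length correction. Intervals are exact 95% intervals for counting error only, and cells of 1 library are not replicates.

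Tenocyte-like cells carried Thbs1, Thbs4, Comp, Cilp and Cilp2 at higher levels than fibroblast-like cells in both libraries, and Thbs4 was among the most abundant transcripts of any kind. Thbs4 reached 11428 CPM (11225 to 11634) in E10-P56 and 10811 (10702 to 10921) after the adult pulse, which placed it 6 and 8 in the order of all genes by UMIs and made up 1.14% and 1.08% of all UMIs of these cells. Cilp followed at 1327.6 CPM (1258.9 to 1399.1) and 1549.4 (1508.3 to 1591.4). Thbs4 and Cilp therefore kept their places as the first and second of the family in both libraries.

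The middle of the order differed between libraries. In E10-P56, Cilp2 stood at 1031.3 CPM (971 to 1094.5), Thbs1 at 978 (919 to 1039.8), Comp at 869 (814 to 927) and Thbs2 at 662 (614 to 713). The intervals of Cilp2 and Thbs1 overlapped, as did those of Thbs1 and Comp. In the adult pulse the order was Comp at 641 CPM (614 to 668), Cilp2 at 567 (542 to 592), Thbs1 at 344 (325 to 364) and Thbs2 at 276 (259 to 294), with no overlap between neighbours. Thbs3 was last in both, at 56 CPM (42.7 to 72.3) and 49.5 (42.4 to 57.5).

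**Figure D1:**
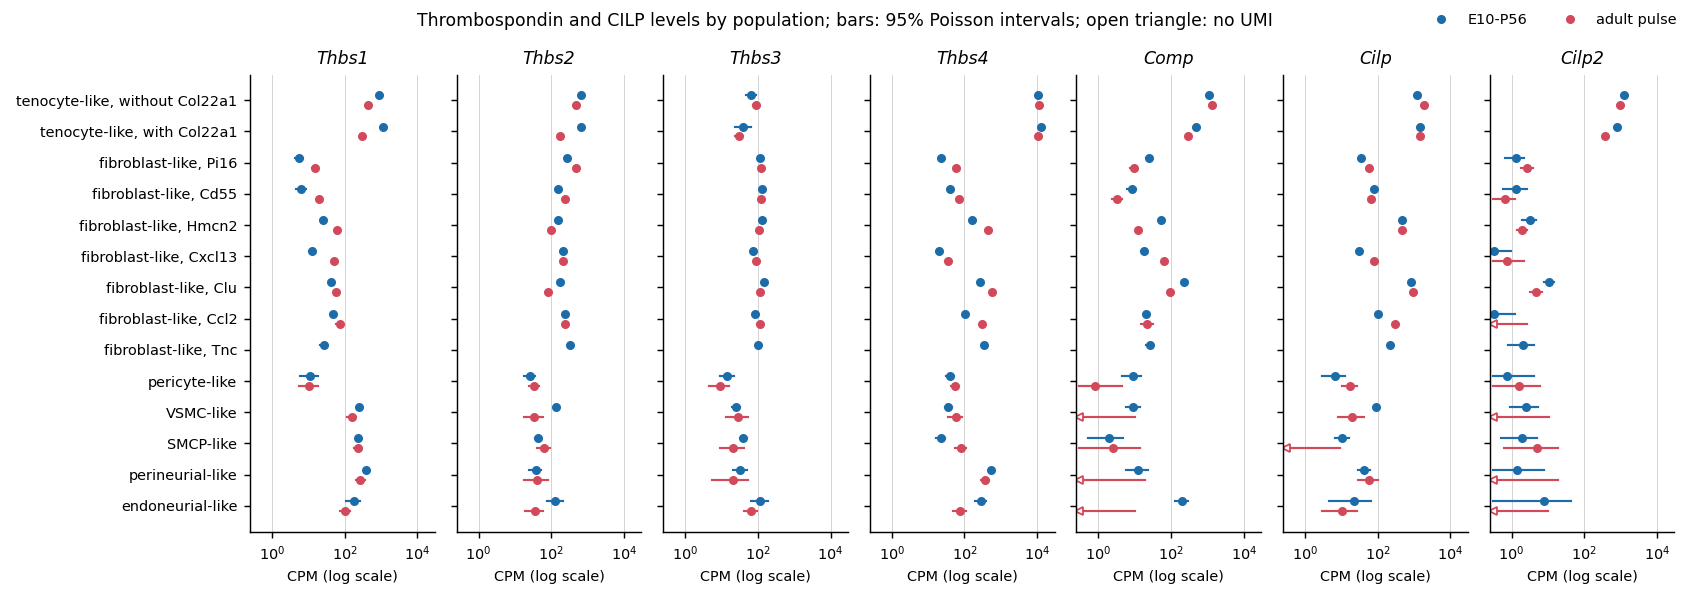
Level of each gene (CPM, log axis) in 14 populations, with E10-P56 in blue and the adult pulse in red, bars for 95% Poisson intervals and open triangles for no UMI. Thbs4, Comp, Cilp and Cilp2 are highest in both tenocyte-like rows, Thbs1 is also raised in VSMC-like, SMCP-like and perineurial-like cells, and Thbs3 lies between 72.0 and 148 CPM in all fibroblast-like subsets.

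Against fibroblast-like cells, Cilp2 and Thbs4 showed the widest separation. Fibroblast-like cells had 2.43 (E10-P56) and 2.11 CPM (adult pulse) of Cilp2, and the ratio of tenocyte-like to fibroblast-like cells was 425 (349 to 521) and 268 (223 to 324). The fibroblast-like level of Cilp2 was close to that of mural-like cells (1.85 and 2.03 CPM), which may be background. These ratios are therefore to a level that may be near background over all fibroblast-like cells. They ran from 110 to 783 and from 120 to 439 under the alternatives. For Thbs4 the fibroblast-like level was 103 and 281 CPM and the ratio 111 (108 to 115) and 38.4 (37.7 to 39.1). Thbs1, at 21.1 and 41.5 CPM in fibroblast-like cells, was 46.3-fold (42.4 to 50.7) and 8.29-fold (7.73 to 8.89) higher in tenocyte-like cells.

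Comp, Cilp and Thbs2 had higher levels in tenocyte-like cells too. Comp was 45.0 and 24.6 CPM in fibroblast-like cells, giving ratios of 19.3 (17.9 to 20.9) and 26 (24.3 to 27.8), and Cilp was 195 and 328 CPM, giving 6.8 (6.42 to 7.19) and 4.72 (4.58 to 4.87). Thbs2, at 216 and 215 CPM in fibroblast-like cells, was 3.07-fold (2.84 to 3.32) higher in tenocyte-like cells of E10-P56 but only 1.28-fold (1.2 to 1.37) higher after the adult pulse. Thbs3 went the other way, with ratios of 0.519 (0.394 to 0.67) and 0.443 (0.378 to 0.515) to 108 and 112 CPM in fibroblast-like cells.

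By a 2-fold criterion among genes with a mean of at least 10 CPM, 6 of 7 genes were higher in tenocyte-like cells in E10-P56, where 10.2% of 8662 genes were, and 5 of 7 after the adult pulse, where 6.9% of 8294 genes were. None of the 7 was lower in E10-P56 (8.83% of all genes) and 1, Thbs3, was lower after the adult pulse (10.6%). The median ratio of the 7 genes was 19.3 and 8.29, beside 1.07 and 0.955 over all genes tested. With Scx left out of the tenocyte gate, a variant added after seeing its levels, the counts were again 6 and 5, while the Cilp2 ratio was 304 and 184.

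The cells that hold most of a transcript need not be those with the highest level, because fibroblast-like cells were far more numerous. Tenocyte-like cells held 71.1% and 75.2% of all Cilp2 UMIs and 55.5% and 59.9% of Thbs4 UMIs in the 2 libraries (E10-P56 first). For Comp the share was 24.5% and 46.3%, for Cilp 11.8% and 19.7%. Fibroblast-like cells, in contrast, held 75% and 70% of Cilp UMIs, 74% and 87.1% of Thbs2 UMIs and 86.2% and 92.2% of Thbs3 UMIs. They held 54.5% and 29.9% of Comp UMIs, more than tenocyte-like cells in E10-P56 and less after the adult pulse. Of Thbs1 UMIs they held 16.4% and 54.5%, beside 17.7% and 26.9% in tenocyte-like cells.

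**Figure D2:**
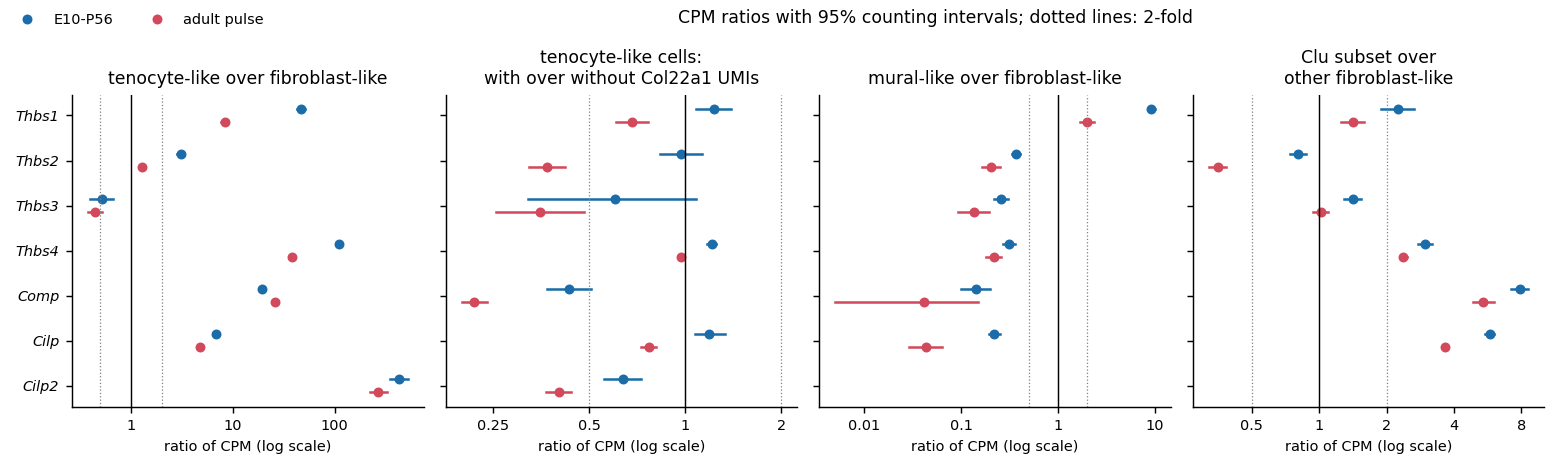
Ratio of levels (log axis) for 4 comparisons within each library, with 95% counting intervals, a solid line at 1 and dotted lines at 2-fold, E10-P56 in blue and the adult pulse in red. Of the 7 genes, 6 lie right of 1 in both libraries for tenocyte-like over fibroblast-like cells, Comp lies left of the dotted line for cells with over without Col22a1 UMIs, and Thbs1 alone lies right of 1 for mural-like over fibroblast-like cells.

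Col22a1 encodes a collagen of the myotendinous junction, where tendon cells anchor to muscle fibres, and tenocyte-like cells were split by whether they had a Col22a1 UMI. Comp and Cilp2 were lower in cells with Col22a1 in both libraries, while Thbs4 and Cilp differed little. The split gave 124 cells without and 72 with Col22a1 in E10-P56, and 194 without and 282 with it after the adult pulse. Cells with Col22a1 were deeper (median 5594.5 against 4487.5 UMIs, and 7573 against 5536).

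Comp was 1125.5 CPM (1044.1 to 1211.5) without and 487 (423 to 558) with Col22a1 in E10-P56, a ratio of 0.433 (0.369 to 0.506). In the adult pulse Comp was 1350.2 CPM (1283.5 to 1419.4) without and 294 (273 to 317) with it, a ratio of 0.218 (0.199 to 0.239). Both libraries thus had the lower Comp level in the Col22a1 cells, and Comp was the 1 gene of the family past 2-fold in both. When each cell was first thinned to 1500 UMIs and then split, the Comp ratio was 0.362 and 0.256. Of the cells without Col22a1, 13 of 124 and 11 of 194 lay in a cluster led by Bglap2, against 1 of 72 cells with Col22a1 in E10-P56. With clusters in place of gates the ratio was 0.378 and 0.225.

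The Comp level was lower in each higher class of Col22a1. Cells with 0, 1, 2 to 4, and 5 or more Col22a1 UMIs had 1125.5, 843, 408 and 348 CPM of Comp in E10-P56, and 1350.2, 629, 306 and 237 after the adult pulse. The classes with 2 to 4 and with 5 or more UMIs had overlapping intervals in both libraries. Cilp2 was 1208.0, 833, 875 and 672 CPM in the same classes of E10-P56 and 948, 586, 518 and 306 after the adult pulse, and its ratio of cells with to cells without Col22a1 was 0.636 (0.557 to 0.725) and 0.402 (0.367 to 0.439). Chad, a matrix protein of cartilage and tendon, moved with them, at 967 CPM without and 284 with Col22a1 in E10-P56 and 1313.3 and 226 after the adult pulse. Fmod, which encodes a collagen-binding proteoglycan, went from 5573.4 to 4647.1 and from 7083.0 to 2370.4. Of the tenocyte markers, Scx was 5598.8 and 9339.2 CPM, then 518 and 1069.3. Kera was 952 and 1401.7, then 1414.3 and 1312.3, and Mkx 87.3 and 130, then 98.4 and 90.9, so that both were lower with Col22a1 after the adult pulse alone.

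Thbs4 was high in both classes. Its level was 10545 CPM (10293 to 10802) without and 12743 (12405 to 13088) with Col22a1 in E10-P56, and 11031 (10839 to 11226) and 10704 (10571 to 10837) after the adult pulse. Cilp was 1231.8 and 1470.3 CPM in E10-P56 and 1835.1 and 1410.0 after the adult pulse. Both genes were therefore slightly higher with Col22a1 in the first library and slightly lower in the second, and so was Thbs1, at 897 and 1099.1 CPM, then 437 and 298.

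Thbs2 and Thbs3 differed clearly after the adult pulse alone. Thbs2 was 670 CPM without and 650 with Col22a1 in E10-P56, a ratio of 0.97 (0.831 to 1.13), and 479 and 177 CPM after the adult pulse, a ratio of 0.37 (0.325 to 0.421). Thbs3 was 66.7 and 40.2 CPM in E10-P56 (0.603, 0.322 to 1.08) and 87.8 and 30.9 after the adult pulse (0.351, 0.256 to 0.48). Whether the libraries differ in this was not tested.

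By the 2-fold criterion, 1 of 7 genes was lower with Col22a1 in E10-P56 (7.83% of 8567 genes) and 4 of 7 after the adult pulse (4.08% of 7940), the 4 being Thbs2, Thbs3, Comp and Cilp2. None was higher (6.65% and 5.19% of all genes). The median ratio of the 7 genes was 0.97 and 0.402, beside 0.993 and 1.05 for all genes.

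**Figure D3:**
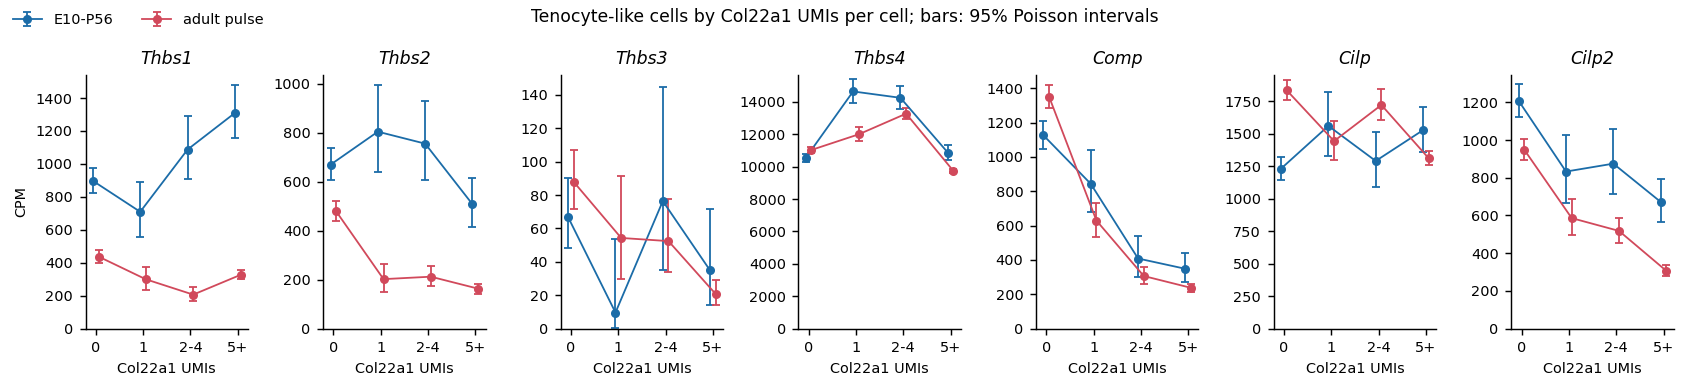
Level of each gene (CPM, linear axis from 0) in tenocyte-like cells with 0, 1, 2 to 4, or 5 or more Col22a1 UMIs, with 95% Poisson intervals, E10-P56 in blue and the adult pulse in red. Comp goes from 1125.5 to 348 CPM and from 1350.2 to 237 CPM between the outer classes, while no class of Thbs4 is below 9729.4 CPM.

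Single cells showed that Thbs4 was general, whereas Comp, Thbs1 and Thbs3 were concentrated in fewer cells. With each cell thinned to 1500 UMIs, 98.5% (E10-P56) and 98.7% (adult pulse) of tenocyte-like cells had a Thbs4 UMI (99% and 99.2% unthinned). For Cilp the thinned shares were 76.5% and 78.4%, and for Cilp2 75% and 51.5%. Comp was found in 34.7% and 35.7%, which are 46.4% and 54% without thinning.

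Shares for the other genes were lower after the adult pulse: 56.6% and 34.7% for Thbs1, 59.2% and 28.8% for Thbs2, and 12.2% and 6.51% for Thbs3. Mural-like cells, in which these tendon genes should be scarce, give the share that free RNA can produce, and it was 0.468% and 0.391% for Cilp2, 0.703% and 0.196% for Comp and 5.74% and 7.44% for Thbs4, at median depths of 4488 and 3424 UMIs against 4728 and 6316.5 in tenocyte-like cells. All tenocyte shares of these 3 genes lay far above those.

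The 20 of 196 tenocyte-like cells with most Comp held 59.3% of its UMIs in E10-P56, and the top 48 of 476 held 55.8% after the adult pulse. For Thbs4 the same numbers of top cells held 28.2% and 25%. The median tenocyte-like cell without Col22a1 had 152 and 579 CPM of Comp, whereas the median cell with Col22a1 had none in either library. After thinning, 42.7% and 55.2% of cells without and 20.8% and 22.3% of cells with Col22a1 had a Comp UMI.

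**Figure D4:**
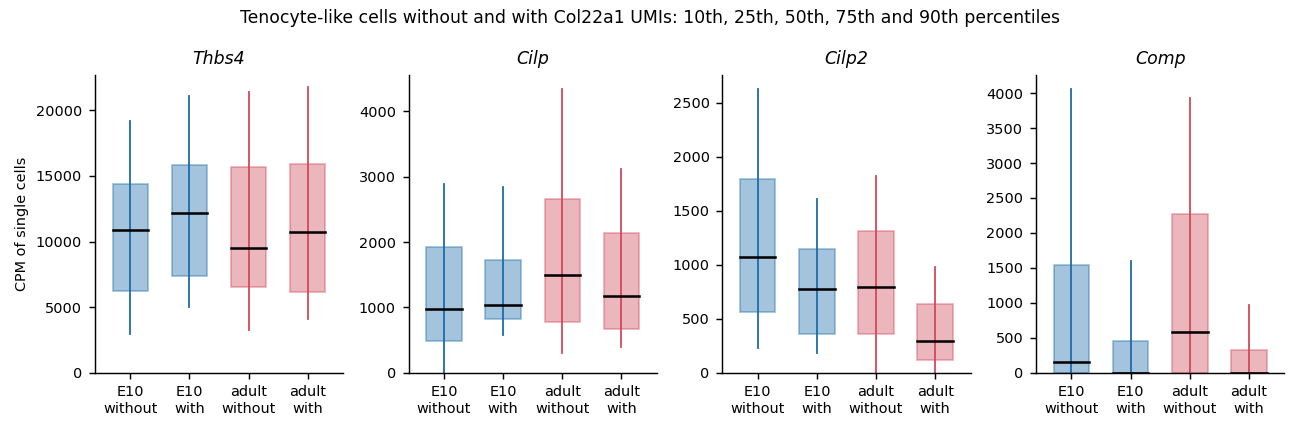
CPM of single tenocyte-like cells for Thbs4, Cilp, Cilp2 and Comp, without and with Col22a1 UMIs in each library, drawn as the median (line), the 25th to 75th percentiles (box) and the 10th to 90th (whisker). The Thbs4 medians lie between 9473.8 and 12154 CPM in the 4 classes, and the Comp median is 0 in both classes with Col22a1.

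Most tenocyte-like cells made several of the genes at once. At 1500 UMIs a cell, each of the 196 and 476 cells had a UMI of at least 1 of the 7. In E10-P56, 30.1% of cells had 4 of the genes and 30.1% had 5, and after the adult pulse 33.4% had 3. Of cells with a Comp UMI, 85.3% and 67.1% also had Cilp2, 80.9% and 83.5% had Cilp, and 98.5% and 98.2% had Thbs4. The Thbs4 and Cilp shares were near those of all tenocyte-like cells given above, and the Cilp2 shares were higher.

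Among fibroblast-like cells the family divided by subset. Subsets were set by 7 short marker lists and are called by their first gene. Cilp, Thbs4 and Comp were high in the Clu subset (Clu, Meox1, Mgp), and Cilp and Thbs4 were also high in the Hmcn2 subset (Hmcn2, Smoc2, Col15a1). In E10-P56 the highest Thbs4 level among these subsets was in Tnc cells, at 337 CPM (318 to 357). Of these Tnc cells 59.4% lay in a cluster led by the cycling gene Mki67. With clusters in place of gates the Tnc subset held 86 cells. Its Thbs4 was then 1066.3 CPM, and its Comp 271 instead of 25.9 CPM. Adult Cxcl13 cells had 63.9 CPM of Comp (56.3 to 72.3), below adult Clu cells but above adult Hmcn2 cells (12.1). Thbs2 was high in the Pi16 subset (markers of adventitial fibroblasts, among them Pi16 and Dpp4), and Thbs3 was spread over all subsets.

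Cilp reached 814 CPM (785 to 843) in the 368 Clu cells of E10-P56 and 938 (913 to 962) in 752 adult Clu cells, against 141 and 256 in all other fibroblast-like cells, a ratio of 5.78 (5.53 to 6.05) and 3.66 (3.55 to 3.78). Comp reached 227 CPM (212 to 243) and 90.8 (83.5 to 98.7) against 28.9 and 16.8, a ratio of 7.87 (7.2 to 8.61) and 5.41 (4.85 to 6.02). Thbs4 was 263 and 584 CPM in the Clu subset, 2.98-fold (2.77 to 3.19) and 2.38-fold (2.29 to 2.47) above the others, but 207 and 230 in the Hmcn1-led cluster that held the largest share of Clu cells (33.7% and 54.1%), against 103 and 281 over all fibroblast-like cells. These levels lay below those of tenocyte-like cells for each of the 3 genes. A further 22.1% of adult Clu cells lay in the Smoc2-led cluster, with 638 CPM of Thbs4.

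In the Clu subset 4 of 6 genes tested were at least 2-fold higher than in other fibroblast-like cells in E10-P56 (2.1% of all genes) and 3 of 6 after the adult pulse (1.98%). The fourth in E10-P56 was Thbs1, at 2.24 (1.88 to 2.66), which was 1.41 (1.25 to 1.58) after the adult pulse. Thbs2 was lower there, with ratios of 0.805 (0.742 to 0.872) and 0.352 (0.321 to 0.385). The Comp of the Clu subset sat in few cells, since the top 37 of 368 and 75 of 752 cells held 91.9% and 95.3% of its UMIs. For Thbs4 the same numbers of top cells held 83.4% and 83%, and the median Clu cell had none in either library. Cells of a cluster led by Bglap2, which also carried the tendon genes Scx and Chad, bear on this: without its cells Comp was 171 and 82.6 CPM, Cilp 782 and 915 and Thbs4 256 and 540 in the Clu subset.

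Between the Hmcn2 and Pi16 subsets the contrast of Cilp was wider still. Cilp was 466 CPM (450 to 482) in Hmcn2 and 34.3 (30.7 to 38.3) in Pi16 cells of E10-P56, a ratio of 13.6 (12.1 to 15.3), and 479 (470 to 489) and 58.1 (53.5 to 62.9) after the adult pulse, a ratio of 8.26 (7.61 to 8.98). Thbs4 was 162 and 22.5 CPM, then 445 and 59.5, with ratios of 7.21 (6.22 to 8.4) and 7.47 (6.89 to 8.12). The top 91 of 913 and 273 of 2728 Hmcn2 cells held 87.2% and 84% of their Thbs4 UMIs. Thbs1 was low in both subsets but 4.55-fold (3.33 to 6.32) and 4.01-fold (3.4 to 4.75) higher in Hmcn2 cells.

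Thbs2 ran against them. It was 149 CPM in Hmcn2 and 275 in Pi16 cells of E10-P56 and 96.4 and 493 after the adult pulse, ratios of 0.542 (0.504 to 0.583) and 0.195 (0.186 to 0.206). The adult Pi16 level of 493 CPM (480 to 507) overlapped that of tenocyte-like cells without Col22a1, 479 (439 to 521). In E10-P56 the highest fibroblast-like Thbs2 level was in the 138 cells of the Tnc subset (332 CPM, 313 to 352), which had under 20 cells after the adult pulse and is not described there.

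By the 2-fold criterion 4 of 6 genes in E10-P56 (5.08% of all genes) and 3 of 6 after the adult pulse (5.48%) were higher in Hmcn2 than in Pi16 cells, and 0 and 1 were lower (3.87% and 4.52%), the 1 being Thbs2. Comp made the difference, with ratios of 2.2 (1.86 to 2.61) and 1.28 (1.01 to 1.64). Thbs3 was 129 and 113 CPM in Hmcn2 and Pi16 cells of E10-P56 and 104 and 120 after the adult pulse, and stayed between 72.0 and 148 CPM over all fibroblast-like subsets of both libraries. The subsets drew on different clusters of cells in the 2 libraries: 78.8% of Hmcn2 cells of E10-P56 lay in a cluster led by Aldh1a2, 75.3% of the adult ones in one led by Smoc2, and Pi16 cells lay mostly in clusters led by Krtdap (76%) and Smpd3 (70.5%).

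Low levels of Thbs4 in fibroblast-like cells have to be set against free RNA, as tenocyte-like cells were so rich in it. Thinned shares with a Thbs4 UMI were 3.84% and 5.11% in Pi16, 4.09% and 5.63% in Cd55 and 3.95% and 2.91% in Cxcl13 cells. All were under the 5.74% and 7.44% of mural-like cells. Mural-like cells were shallower, at a median of 4488 and 3424 UMIs. The medians were 7756 and 7311 in Pi16, 9253 and 8846.5 in Cd55 and 12262 and 10099 in Cxcl13 cells. As depth differed, the mural share cannot show whether these subsets are at background. The Hmcn2 (11% and 19.1%), Clu (15.8% and 20.6%) and Tnc subsets (17.4% in E10-P56) were above the mural share. The Ccl2 subset, with 6.59% and 7.2% and 102 and 300 CPM, was above the mural share in E10-P56 and below it after the adult pulse. Cilp2, with 0.337% and 0.331% of all fibroblast-like cells, was close to the share of mural-like cells. In Clu cells of E10-P56 it was 10.9 CPM (7.77 to 14.8), and 1.44 CPM without the Bglap2-led cluster.

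Mural cells wrap capillaries (pericytes) and larger vessels (vascular smooth muscle cells, VSMC), and the third mural class follows a list of the study for smooth muscle cell progenitors (SMCP). Thbs1 was the 1 gene of the family with a higher level in mural-like than in fibroblast-like cells. It was 192 CPM (181 to 203) in mural-like cells of E10-P56, 9.09-fold (8.34 to 9.92) above fibroblast-like cells, and 81.8 (69.7 to 95.5) after the adult pulse, 1.97-fold (1.67 to 2.32) above them. With each cell thinned to 1500 UMIs the mural-like levels were 109 and 44.4 CPM and the ratios 4.97 and 1.25, and with the mean of per-cell CPM 110 and 50 CPM and 5.04 and 1.36. Pericyte-like cells had little of it, with 10.9 CPM (6.1 to 18) and 10.7 (5.68 to 18.3).

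VSMC-like cells carried Thbs1 at 255 CPM (235 to 276) in 257 E10-P56 cells and 156 (117 to 203) in 70 adult cells, and SMCP-like cells at 237 (217 to 259) in 195 cells and 230 (185 to 283) in 73. Their intervals overlapped in both libraries, and all 4 lay above both pericyte-like values. The VSMC class drew on different clusters, 75.1% Sorbs2-led in E10-P56 but 42.9% H2-M9-led, the main SMCP cluster, and 34.3% Sorbs2-led after the adult pulse. By cluster, Thbs1 was 154 CPM (137 to 172) in Sorbs2-led and 241 (222 to 261) in H2-M9-led cells of E10-P56, with no overlap, and 81.1 (45.4 to 134) and 166 (138 to 198) after the adult pulse. Immediate early genes (Fos, Jun, Egr1, Atf3 and Ier2), which dissociation can raise, were also lowest in pericyte-like cells: together they were 717 and 1664.3 CPM in pericyte-like, 2554.2 and 5248.4 in VSMC-like and 3184.8 and 5220.9 in SMCP-like cells, and their part in the Thbs1 level was not tested. With the mitochondrial limit at 5%, Thbs1 in adult VSMC-like cells was 54.7 CPM.

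The other genes tested were lower in mural-like cells as a whole than in fibroblast-like cells, but not in every class against every subset. In VSMC-like cells of E10-P56 Thbs2 was 138 CPM (124 to 154), overlapping Hmcn2 cells (140 to 158). Cilp was 91.2 CPM (79.6 to 104) there, above Pi16 cells (34.3). With clusters in place of gates these VSMC-like levels were 48 and 17 CPM. After the adult pulse they were 34 and 19.8 CPM by gate. Ratios to fibroblast-like cells were 0.365 and 0.203 for Thbs2, 0.259 and 0.136 for Thbs3, 0.313 and 0.215 for Thbs4, and 0.22 and 0.0434 for Cilp. Comp was 0.142 (0.1 to 0.196) in E10-P56, and after the adult pulse its 2 UMIs gave 0.0413 (0.00499 to 0.149). Cilp2, at 1.85 and 2.03 CPM, was below the level needed for a ratio. Of 6 genes tested, 1 was at least 2-fold higher in E10-P56 (12.3% of all genes) and 0 after the adult pulse (14.8%), and 5 were lower in both (9.53% and 10.6%).

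Perineurial-like cells, the sheath around nerve bundles, had Thbs4 and Thbs1 but little of the rest. Thbs4 was 536 CPM (484 to 592) in 144 E10-P56 cells and 372 (291 to 469) in 37 adult cells, with a UMI in 43.8% and 45.9% of thinned cells. Thbs1 was 387 CPM (343 to 435) and 269 (201 to 353). Ratios to fibroblast-like cells were 5.22 (4.69 to 5.78) and 1.32 (1.04 to 1.67) for Thbs4 and 18.3 (16 to 20.9) and 6.49 (4.83 to 8.53) for Thbs1, so that 2 of 6 genes were at least 2-fold higher in E10-P56 (16.7% of all genes) and 1 of 6 after the adult pulse (19%). Their immediate early gene sum was 6095.7 and 9859.7 CPM, beside 5198.4 and 6884.6 in tenocyte-like cells, and its part in the Thbs1 level was not tested.

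Thbs2 (36.9 and 41.4 CPM), Thbs3 (32.8 and 20.7) and Cilp (42.4 and 56.9) were all lower in perineurial-like than in fibroblast-like cells. Comp was 12.3 CPM in E10-P56. Neither Comp nor Cilp2 had a UMI in the 37 cells of the adult pulse, for which the interval is 0 to 19.1 CPM and 3 counts are 15.5 CPM. Of the 14 populations, Thbs1 thus stood highest in tenocyte-like cells, then in perineurial-like and in non-pericyte mural-like cells. After the adult pulse the perineurial interval overlapped those of Col22a1 tenocyte-like cells (277 to 321) and of SMCP-like cells, and in E10-P56 it overlapped neither.

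The 2 labelling times are set side by side without a test. In fibroblast-like cells, Thbs4 was 2.74 times (2.65 to 2.83) as high after the adult pulse as in E10-P56, and in mural-like cells, where it is read as background, 1.88 times (1.48 to 2.38). The ratio was 2.22 (2.06 to 2.38) in Clu and 2.74 (2.58 to 2.92) in Hmcn2 cells. Hmcn2 cells lay mostly in different clusters in the 2 libraries. For Clu cells the Hmcn1-led cluster held the largest share in both (33.7% and 54.1%). The next largest was Aldh1a2-led in E10-P56 (29.3%) and Smoc2-led after the adult pulse (22.1%). Within clusters the direction varied, and several held few cells of 1 library. Thbs4 in E10-P56 and after the adult pulse was 1870.1 and 638 CPM in Smoc2-led cells (54 and 2387 cells). It was 214 and 67.9 in Fmo2-led, 36.8 and 28.1 in Cfd-led and 256 and 162 in 6030408B16Rik-led cells. Higher after the adult pulse were Aldh1a2-led (193 and 1307.9, in 1225 and 71 cells), D630033O11Rik-led (15.9 and 85.8), Smpd3-led (11.5 and 46.2) and Bglap2-led cells (1228.2 and 1650.4). Intervals overlapped in Hmcn1-led (207 and 230) and Krtdap-led cells (29.3 and 24.8). Thbs1 (1.96, 1.82 to 2.12) and Cilp (1.68, 1.64 to 1.72) were higher and Comp (0.548, 0.511 to 0.586) lower after the adult pulse, while Thbs2 (0.997, 0.97 to 1.02) and Thbs3 (1.04, 0.998 to 1.08) were near 1. Thus 1 of 6 genes differed 2-fold in fibroblast-like cells, where 4.54% of all genes did.

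Tenocyte-like cells gave another picture. Thbs1 was 0.352 (0.323 to 0.383) and Thbs2 0.417 (0.378 to 0.46) of the E10-P56 level after the adult pulse, Cilp2 0.549 (0.51 to 0.592) and Comp 0.737 (0.682 to 0.797), whereas Thbs4 was 0.946 (0.927 to 0.966) and Cilp 1.17 (1.1 to 1.24). Of 7 genes 2 differed 2-fold, where 13.1% of all genes did, and the median ratio of all genes was 0.826. The mix of cells differed too: 72 of 196 tenocyte-like cells had Col22a1 in E10-P56 and 282 of 476 after the adult pulse. Within cells without Col22a1, Comp was 1.2 (1.1 to 1.31), Thbs2 0.715 (0.628 to 0.813) and Thbs1 0.488 (0.432 to 0.551), and within cells with Col22a1 the same 3 ratios were 0.605 (0.517 to 0.71), 0.272 (0.233 to 0.318) and 0.271 (0.241 to 0.306).

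A list of 21 partner genes covered receptors, proteases and inhibitors, TGF-beta ligands and binders, and matrix partners of the family. In tenocyte-like against fibroblast-like cells 16 could be tested, and 6 were higher and 2 lower in E10-P56 (10.2% and 8.83% of all genes), 5 higher and 4 lower after the adult pulse (6.9% and 10.6%). Higher in both were Col12a1, a fibril-associated collagen of tendon (991 and 801 CPM, ratios 30.8 and 37.4), Matn4, an adaptor of matrix networks (132 and 116 CPM, ratios 11.3 and 17.5), Cacna2d1, the neuronal thrombospondin receptor (ratios 4.76 and 2.79), and the ligands Tgfb1 (3.62 and 2.38) and Tgfb3 (4.2 and 2.77). Itgb1, an integrin chain, was higher at 2.08 in E10-P56. Lower in both were Itgb3, with only 1 and 2 UMIs in tenocyte-like cells (0.0316, 0.0008 to 0.176, and 0.0265, 0.0032 to 0.0958), and Adamts12, a protease that cleaves Comp (0.349 and 0.0762), and lower after the adult pulse were the receptor Cd47 (0.49) and Ltbp1 (0.408), which holds latent TGF-beta in the matrix.

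Across the Col22a1 split 14 partners could be tested and none was past 2-fold in E10-P56. In the adult pulse 1 was higher and 2 were lower, where 5.19% and 4.08% of all genes were: Tgfb1 was higher with Col22a1 (2.63, 1.87 to 3.79), and Timp3 (0.382, 0.344 to 0.425), an inhibitor of matrix proteases, and Ltbp1 (0.365, 0.264 to 0.501) were lower. Of 16 partners tested in mural-like against fibroblast-like cells, 7 were higher and 3 lower in E10-P56 (12.3% and 9.53% of all genes) and 4 higher and 4 lower after the adult pulse (14.8% and 10.6%). Cd36, the receptor of Thbs1 and Thbs2, was 23.9-fold and 447-fold higher in mural-like cells, Itgb1 3.58-fold and 3.38-fold, Timp3 3.45-fold and 2.51-fold and Col12a1 4.45-fold and 2.85-fold. Cacna2d1 (2.41), Tgfb1 (2.93) and Tgfb3 (3.61) were higher in E10-P56 alone, and Mmp2, a gelatinase (0.0717 and 0.0755), Lrp1, which clears thrombospondins (0.278 and 0.441), and Itgb3 (0.392, and 0.0233 from 1 UMI, 0.000591 to 0.13) were lower in both libraries, with Tgfb2 (0.392) lower after the adult pulse.

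Over the 28 populations of both libraries, which share their libraries and depth, each gene was compared with 12886 others by the Pearson correlation of log2(CPM + 5), given as a description. Cilp2 was most like Mkx, Eya1, Atp6v0a4 and Cybrd1 (each r = 0.98) and Kera (0.97), of which Mkx and Kera are markers of the tenocyte gate. Comp was most like Ccbe1 (0.91) and Chad (0.89), Cilp was most like Mfap4 (0.93) and Dchs1 (0.88), and Thbs4 was most like Strbp, F2r and Srgap3 (each 0.89). Thbs2 was closest to Antxr1 (0.92) and Aebp1 (0.91), Thbs3 to Medag (0.91) and Dnm1 (0.90), and Thbs1 to Evl (0.87). Within the family r was highest for Thbs4 with Cilp2 (0.88) and for Comp with Cilp2 (0.83), and lowest for Thbs1 with Thbs3 (-0.22).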

How the data were processed

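Single-cell RNA-seq counts from 2 libraries of sorted tdTomato+ cells were used. The authors aligned 10x Chromium 3′ reads to a modified mm10 genome with Cell Ranger (per the file headers, version 5.0.0 for the embryonic and 3.0.2 for the adult labelling) and deposited UMI counts per gene and barcode, with no normalization. From these counts, barcodes under 1500 UMIs or over 10% mitochondrial UMIs were dropped. A cell passed a gate with at least 3 UMIs from at least 2 genes of a marker list and a marker share above a per-type minimum (8 per 10000 UMIs for tenocyte, 32 for fibroblast and mural). Cells passing several gates (285 and 210) or none (312 and 294) were left out, and no doublet caller was used in the main analysis. Fibroblast-like and mural-like cells took the subset whose list had the highest mean standardized level. Populations under 20 cells were not described. UMIs were summed per population and given as CPM with exact Poisson intervals. Ratios carry exact conditional binomial intervals, shares exact Clopper-Pearson intervals, and a population with 0 UMIs was taken at 3 counts. A gene was called at 2-fold among genes with a mean of at least 10 CPM in the pair. Cells are not replicates, so no p-value was computed.

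All 7 genes were named in every population, partner genes where they passed 2-fold, and for each gene the 5 with the highest correlation among genes with at least 100 UMIs, of which the closest are printed. The members, marker lists and partner list were chosen with earlier results of these data known. The ratios were tried on simulated Poisson counts with known folds, which carry counting error but not the spread between cells. Annotation was GENCODE M21, and promoter windows came from RefSeq. Alternatives were other limits on cells, clusters (scanpy 1.11.5, leidenalg 0.10.2) in place of gates, doubled marker shares, other denominators, thinning and other Col22a1 splits, and 2 were added after seeing the data: the gate without Scx and leaving out the Bglap2-led cluster. Analyses used Python 3.11.15, numpy 2.4.6, scipy 1.17.1 and pandas 2.3.3.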

Additional observations from a re-analysis of the deposited data

Results flagged for a closer look

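For 4 values the 2 libraries lay on opposite sides of 1, and the difference between the libraries was not tested. In tenocyte-like cells the ratio of cells with to cells without Col22a1 UMIs was 1.23 in E10-P56 and 0.682 after the adult pulse for Thbs1, 1.21 and 0.97 for Thbs4, and 1.19 and 0.768 for Cilp. With Scx left out of the tenocyte gate the E10-P56 ratio of Thbs1 was 0.886, on the same side of 1 as the adult pulse. The adult ratio of Thbs4 was 1.03 with the mean of per-cell CPM. In fibroblast-like cells the ratio of the Hmcn2 to the Pi16 subset for Thbs3 was 1.14 in E10-P56 and 0.866 after the adult pulse. None of these 8 ratios was past 2-fold.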

How the results depend on the processing

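The counts under the alternatives covered genes at least 2-fold higher within a library, and genes past 2-fold in either direction between libraries. Of 92 such counts, 86 were within 1.5 times the reported count and 6 were not. The 86 include counts of 0 that stayed 0, among them all those of the Col22a1 split. Counts of genes lower within a library were not scored in this way. For the Col22a1 split, where no gene was higher, the scored counts therefore do not bear on the genes reported as lower. The count higher in mural-like than in fibroblast-like cells of the adult pulse was 1 (Thbs1) instead of 0 with at least 3000 UMIs per cell and with the marker share doubled. The count differing between libraries in fibroblast-like cells was 3 (Thbs1, Thbs4, Comp) instead of 1 with the marker share doubled, and 2 with the mean of per-cell CPM, with mitochondrial and ribosomal UMIs out of the denominator, and with cells thinned to 1500 UMIs. The cause was not tested. Of 653 values of single genes, 464 moved by less than their counting interval, 189 moved further and 0 reversed a called direction. Thbs3, near the 2-fold line, was called lower in tenocyte-like than in fibroblast-like cells of E10-P56 at 3000 UMIs (0.493) and no longer so after the adult pulse with clusters in place of gates (0.513). In the adult Col22a1 split it was 0.543 after thinning, which left 3 genes lower. Widest was Cilp2 in tenocyte-like over fibroblast-like cells, at 110 to 783 in E10-P56 and 120 to 439 after the adult pulse. Of 2023 levels of at least 10 CPM, 117 moved over 1.5-fold. No paired analysis was possible because each labelling time has 1 library. Depth limits the E10-P56 endoneurial-like (25 cells) and the adult perineurial-like cells (37) most, where 3 counts stand for 22.8 and 15.5 CPM.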

Other observations

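A cluster led by Bglap2 (107 cells in E10-P56 and 163 after the adult pulse, named after the data were seen) combined much of the family. It had 965 and 513 CPM of Comp, 746 and 721 of Thbs2, 1228.2 and 1650.4 of Thbs4, 722 and 1006.3 of Cilp and 294 and 126 of Cilp2, with 1085.2 and 85.4 of Scx and 765 and 521 of Chad. Its Thbs2 level was above that of tenocyte-like cells, 662 (614 to 713) and 276 (259 to 294), after the adult pulse, while in E10-P56 the intervals overlapped (692 to 804). A cluster led by Hmcn1, Clu and Meox1 (189 and 653 cells) had 495 and 121 CPM of Comp and 715 and 861 of Cilp, but 207 and 230 of Thbs4 and 2.65 and 2.94 of Cilp2.

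Endoneurial-like cells had 26 Comp UMIs in 25 cells of E10-P56 (198 CPM, 129 to 290), all from 3 of those cells, and none in 56 cells of the adult pulse (interval 0 to 9.88 CPM, with 3 counts at 8.03). Scx was 494 CPM in those E10-P56 cells and 2.68 after the adult pulse, and its link to Comp was not tested. Cells that passed no gate had 64.9 and 345 CPM of Comp.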
